A study of Mus musculus with 8 samples.

Results

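The 10 genes described here encode the main proteins of mouse milk and 3 proteins of milk fat secretion. They were chosen by name, as the rows of the count table whose Entrez Gene ID belongs to Csn1s1, Csn1s2a, Csn2, Csn3, Wap, Lalba, Glycam1, Btn1a1, Xdh and Plin2, and all 10 were present among 24594 genes. Their levels were compared between 4 libraries of luminal progenitors (LP) and 4 libraries of mature luminal cells. Both fractions came from the mammary glands of untreated, virgin, wild type C57BL/6J mice, and the age given for the animals of the study as a whole was 12 to 20 weeks. The glands were dissociated, blood and endothelial cells were gated out with TER-119, CD45 and CD31, and luminal cells were sorted on EpCAM, CD49f and c-Kit, to which the labels add CD14. LP are the c-Kit high luminal cells and mature luminal cells the c-Kit low ones. From each sample 500 pg of total RNA was amplified, and 51 bp reads were counted on genes. The study calls its RNA sequencing replicates biological, and the labels do not name the mouse or mice behind each library, so the p-values measure the spread between these libraries. Each LP library shares a number with a mature library in the labels, and the meaning of that number is not stated. The main test treated the libraries as unpaired, and a fit with the pairs as a block is described further below. No animal was pregnant or lactating, so the libraries show the resting gland.

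Caseins are secreted phosphoproteins that carry calcium in milk, and kappa-casein, the product of Csn3, keeps the casein micelle in solution. Whey acidic protein (Wap) and alpha-lactalbumin (Lalba) are soluble milk proteins, and alpha-lactalbumin is also the regulatory subunit of lactose synthase. Milk fat leaves the cell as lipid droplets coated by perilipin 2 (Plin2) and wrapped in plasma membrane, where butyrophilin (Btn1a1) and xanthine dehydrogenase (Xdh) sit. In pregnancy, prolactin acting through its receptor, JAK2 and STAT5 induces these genes in alveolar cells, which descend from luminal progenitors, and the transcription factor ELF5 acts alongside STAT5.

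STAT5 binds the letters TTCNNNGAA, a sequence that reads the same on both strands. RefSeq (GRCm38.p6, the same assembly as mm10) gave an upstream sequence for 7 of the 10 genes, and for each the 250 bases before the transcription start of that sequence were searched. This start need not be the outer end of the gene. The window of Lalba lies wholly inside the annotated gene span, and those of Plin2, Csn2 and Wap lie partly inside theirs. The letters occurred once each before Csn1s1, Csn2 and Glycam1, and not in the windows of Csn1s2a, Wap, Lalba and Plin2. Of 32851 such windows in the table, 7.02% held them. The 4 sequences below belong to genes that were almost silent in all 8 libraries, 3 with the letters (in capitals) and Wap without them, and each ends at the base before the start:
Csn1s1, chr5:87665958-87666207, plus strand: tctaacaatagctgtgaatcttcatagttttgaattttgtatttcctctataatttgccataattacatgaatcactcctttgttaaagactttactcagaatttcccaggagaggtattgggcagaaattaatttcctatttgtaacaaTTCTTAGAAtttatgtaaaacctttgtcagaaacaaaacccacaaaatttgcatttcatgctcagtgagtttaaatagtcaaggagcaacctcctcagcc
Csn2, chr5:87699426-87699675, minus strand: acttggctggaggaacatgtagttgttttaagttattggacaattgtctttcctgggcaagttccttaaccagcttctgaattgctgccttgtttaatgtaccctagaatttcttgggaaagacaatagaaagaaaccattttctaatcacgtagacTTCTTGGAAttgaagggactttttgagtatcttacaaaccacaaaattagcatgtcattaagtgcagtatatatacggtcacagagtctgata
Glycam1, chr15:103565082-103565331, minus strand: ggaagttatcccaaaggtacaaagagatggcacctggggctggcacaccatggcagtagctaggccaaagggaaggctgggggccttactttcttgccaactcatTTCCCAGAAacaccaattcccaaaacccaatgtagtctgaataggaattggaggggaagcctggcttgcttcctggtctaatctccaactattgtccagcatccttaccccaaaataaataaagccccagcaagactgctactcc
Wap, chr11:6638650-6638899, minus strand: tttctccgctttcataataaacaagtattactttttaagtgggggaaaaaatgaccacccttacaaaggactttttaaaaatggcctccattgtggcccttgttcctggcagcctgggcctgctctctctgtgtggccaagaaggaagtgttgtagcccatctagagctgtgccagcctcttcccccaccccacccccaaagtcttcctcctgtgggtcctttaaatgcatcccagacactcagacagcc
The matches began 100 bases before the start in Csn1s1 (-100 to -92), 93 bases before it in Csn2 (-93 to -85) and 145 bases before it in Glycam1 (-145 to -137). A match is a description of the letters and was not tested as a binding site.

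The libraries held 4410049 to 7791593 counts on genes. CPM is the unit of level used here, in which each library is brought to the same size. The limit taken for a count of 0 was 3 counts, or 0.385 to 0.68 CPM. Intervals and limits of this kind cover counting error only. Libraries of the same fraction differed beyond counting noise in all 12 pairs, and none was a copy of another. Kit, the gene of the sorting marker, lay between 522 and 832 CPM in LP and between 41.2 and 179 CPM in mature libraries (log2 fold change 2.96, SE 0.456, edgeR quasi-likelihood adjusted p = 0.00143). The value for Kit was 3.67 without mature replicate 3 and 2.75 without mature replicate 2. Cd14 differed by 6.25 on the log2 scale (SE 0.475, adjusted p = 0.000104), whereas Epcam (0.26, SE 0.186, adjusted p = 0.332) and Itga6 (-0.14, SE 0.207, adjusted p = 0.656), which encodes CD49f, were not called. The summed level of 5 LP markers (Kit, Elf5, Cd14, Aldh1a3 and Itgb3) was 13576 to 20040 CPM in LP and 244 to 967 CPM in mature libraries, with mature replicate 3 the highest of the mature ones. Most of the LP sum was Cd14, at 12142 to 18322 CPM, while Aldh1a3 was not called (adjusted p = 0.0512) and Itgb3 was at 0 to 10.2 CPM in LP. The 6 mature luminal markers (Pgr, Esr1, Prlr, Areg, Foxa1 and Cited1) summed to 307 to 997 CPM in LP and 4370 to 6145 CPM in mature libraries. The 4 luminal markers (Krt8, Krt18, Krt19 and Epcam) summed to 11277 to 12493 CPM in LP and 22792 to 40819 CPM in mature libraries. Krt8, Krt18 and Krt19 were called as higher in mature cells (log2 fold changes -1.24, -1.59 and -1.62, adjusted p = 0.00371, 0.0019 and 0.00235). Markers of cells outside the gate were low, at 2.25 to 10.5 CPM over 7 endothelial genes with Kdr at 0, 11.3 to 56.6 CPM over 8 immune genes with Cd3e at 0 and most of the sum from Cd68, and 7.35 to 177 CPM over 5 fibroblast genes, with Dcn at 132 and 154 CPM in mature replicates 1 and 2.

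Of the 10 milk genes, Csn3, Xdh, Plin2 and Btn1a1 passed the filter on low counts and were tested, and the other 6 were not. Csn3, Xdh and Plin2 were higher in LP at an adjusted p below 0.05, and Btn1a1 was not called. Across all 12816 tested genes 24.7% were called, 10.9% as higher in LP and 13.8% as higher in mature cells. The study drew a list of LP genes from these same samples, and that list holds Csn3, Xdh and Plin2, so it is not independent evidence of their direction. The same 3 genes had no overlap between the fractions, with every LP library above every mature one, which 14.0% of the tested genes also showed. In bulk RNA of this kind, fewer cells that express a gene and less RNA per cell cannot be told apart.

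**Figure D1:**
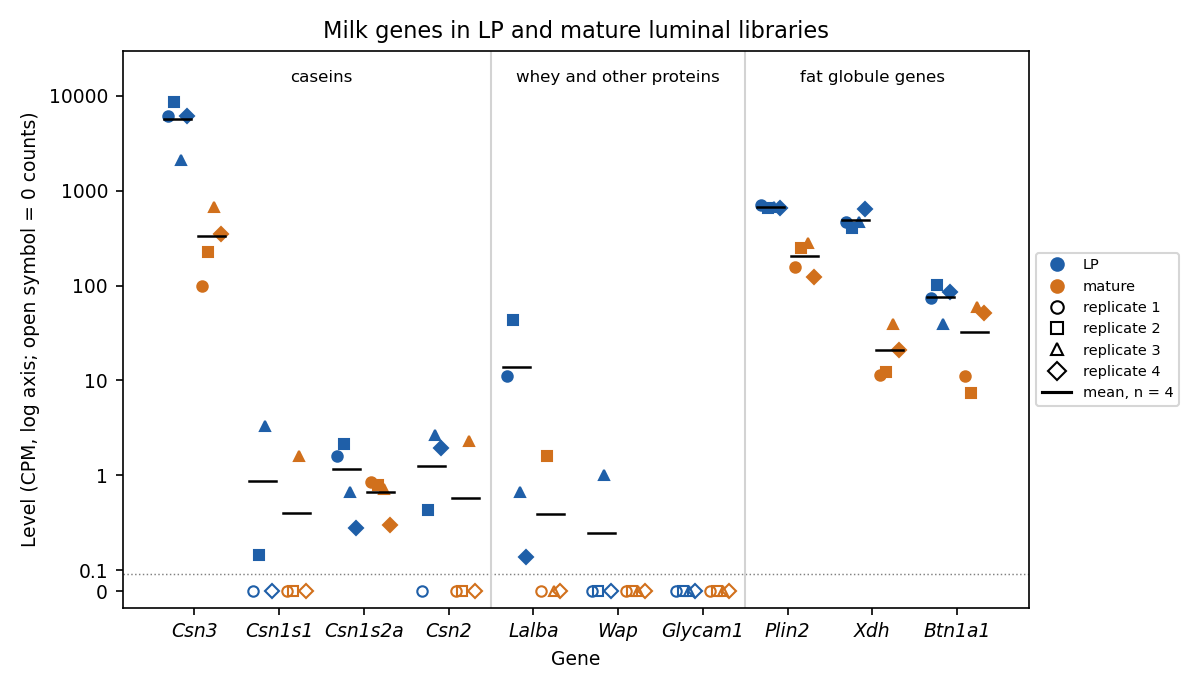
Level of each of the 10 milk genes in CPM (log axis) in the 4 LP libraries (blue) and the 4 mature libraries (orange), with a symbol for each replicate number, a black line at each mean and open symbols for 0 counts. Csn3, Plin2 and Xdh separate the fractions, Btn1a1 overlaps between 39.2 and 58.9 CPM, and the other 6 genes sit near or at 0 in most libraries.

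Csn3 had the highest level per kilobase of spliced transcript of the milk genes in both fractions. Its level was 6087, 8654, 2128 and 6215 CPM in LP replicates 1 to 4, and 98.9, 227, 673 and 348 CPM in mature replicates 1 to 4. The lowest LP library thus lay above the highest mature library, and LP replicate 3 stood below the other LP libraries. The fold change was 17.1 (log2 fold change 4.10, SE 0.61, adjusted p = 0.00122). By mean CPM per kilobase, Csn3 ranked 8 among 23954 genes in LP and 403 in mature cells. The ranking was not corrected for genes that share counts, as Csn3 and 1700066N21Rik do (described below). Division by spliced length does not allow for reads in introns, whose part in the counts is not known. Its share of all counts ran from 0.233% (95% Wilson interval 0.229% to 0.237%) in LP replicate 3 to 0.932% (0.924% to 0.939%) in LP replicate 2, and from 0.00902% (0.00838% to 0.00971%) to 0.0652% (0.0634% to 0.0671%) in mature libraries. Without mature replicate 3 the log2 fold change was 4.71 (adjusted p = 0.00055), and without LP replicate 3 it was 4.38 (adjusted p = 0.00213).

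The counts of Csn3 could not be told apart from those of 1700066N21Rik, a long noncoding RNA gene on the opposite strand that spans chr5:87908588-87979351 and encloses the Csn3 gene (chr5:87925579-87932550) within an intron. That gene had between 0 and 73 counts more than Csn3 in each library, for example 60212 against 60196 in LP replicate 2 and 864 against 864 in mature replicate 2. No exon of this RNA overlaps Csn3 in the GENCODE vM21 annotation. Whether whole gene spans were counted, and whether strand was used, is not given in the sources used here, so the level given for Csn3 is that of reads falling on its span.

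The other caseins of the same gene cluster were close to absent. Csn1s1, which encodes alpha-S1-casein, had 0, 1, 20 and 0 counts in LP replicates 1 to 4 and 0, 0, 11 and 0 counts in mature replicates 1 to 4. Csn2, which encodes beta-casein, had 0, 3, 16 and 14 counts in LP and 0, 0, 16 and 0 counts in mature libraries. Csn1s2a, an alpha-S2-type casein gene, had 11, 15, 4 and 2 counts in LP and 6, 3, 5 and 2 counts in mature libraries, and was the only casein gene besides Csn3 with a count in all 8 libraries. The levels of these 3 genes overlapped between the fractions. Compared per kilobase of spliced transcript, the mean level of Csn3 in LP was 3616 CPM, against 0.614 for Csn1s1, 1.28 for Csn1s2a and 0.946 for Csn2. In mature cells the same per kilobase levels were 211, 0.281, 0.721 and 0.435 CPM. These levels do not allow for reads in introns, whose part in the counts is not known. A read aligned without splitting across introns can fall wholly inside an exon for 88.8% of the positions on the Csn3 transcript, but for 75.8% on Csn2, 44.5% on Csn1s2a and 32.8% on Csn1s1, of whose 34 exons 31 are shorter than a read. The median over 23950 genes was 87.7%. Whether, and how far, exon structure lowered the counts of Csn1s1, Csn1s2a and Csn2 was not tested.

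The counts of the rare caseins were not spread evenly over the libraries. Of 32 counts for Csn1s1, 31 came from LP replicate 3 and mature replicate 3, and these 2 libraries also held 32 of the 49 counts for Csn2 and all 6 counts for Wap. For Csn1s1 the exact 95% interval in LP replicate 3, 2.22 to 5.6 CPM, lay above those of the other 3 LP libraries. That in mature replicate 3, 0.769 to 2.76 CPM, overlapped the exact interval of mature replicate 2, which reached 0.836 CPM at 0 counts. Csn3 followed in the mature fraction only, since it was highest in mature replicate 3 but lowest in LP replicate 3. Summed over 8 basal markers (Krt5, Krt14, Acta2, Myh11, Trp63, Cnn1, Mylk and Oxtr), the level was 51.1 CPM in mature replicate 3 and 8.86 to 27.4 CPM in the other mature libraries, and 16.4 CPM in LP replicate 3 within an LP range of 4.02 to 18.0 CPM. The sums came from different genes. Oxtr was at 8.28, 11.9, 8.3 and 1.11 CPM in LP replicates 1 to 4 and at 0 to 3.18 CPM in mature libraries. Krt14 and Acta2 were highest in mature replicate 3, at 18.6 and 16.6 CPM, and did not exceed 3.02 CPM in LP. The part of basal cells in these counts was not tested.

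**Figure D2:**
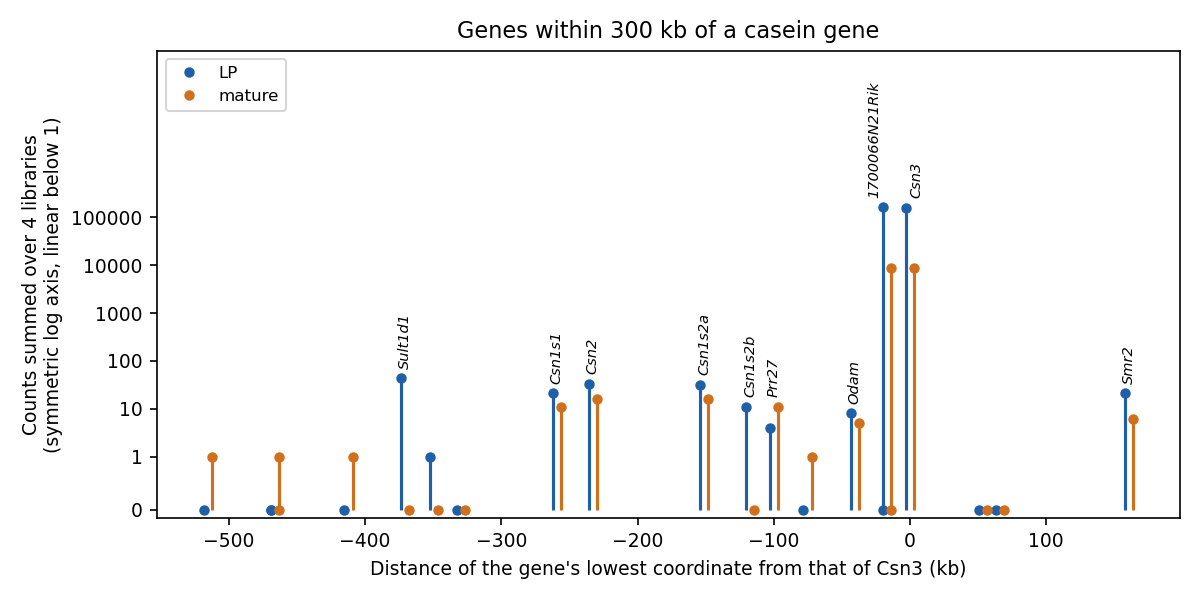
Counts summed over the 4 LP (blue) and the 4 mature (orange) libraries, on a symmetric log axis, for each annotated gene within 300 kb of a casein gene, placed by its distance in kb from Csn3. Csn3 and the overlapping RNA gene 1700066N21Rik have 168280 and 168446 counts over all 8 libraries, and every other gene stays at 49 counts or fewer.

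The rest of the casein region was as quiet. Of 16 annotated genes outside the 10 milk genes whose start lay within 300000 bases of a casein gene, 5 had no count in any library, and 10 had between 1 and 43 counts in all, leaving 1700066N21Rik as the only one with more. Csn1s2b, a further casein gene, had 3 counts in LP replicate 2, 8 in LP replicate 4 and none elsewhere. Sult1d1, a sulfotransferase gene, had 14, 14, 14 and 1 counts in LP replicates 1 to 4 and none in mature libraries. Smr2, a gene of the submaxillary gland, had 13 counts in LP replicate 2, 8 in LP replicate 3 and 6 in mature replicate 3. Odam had 13 counts in all and Prr27 had 15.

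Among the whey proteins, Lalba had counts mainly in LP replicates 1 and 2. The counts were 77, 300, 4 and 1 in LP replicates 1 to 4, and 0, 6, 0 and 0 in mature replicates 1 to 4. In LP this corresponded to 12.1 CPM of the unscaled library (exact 95% interval 9.53 to 15.1), 46.4 CPM (41.3 to 52.0), 0.726 CPM (0.198 to 1.86) and 0.141 CPM (0.00357 to 0.786), so that LP replicates 1 and 2 differed from the other LP libraries by more than counting error. LP replicates 3 and 4 were below mature replicate 2, and the fractions overlapped. Lalba failed the filter on low counts. In a fit of all 18975 genes with any count, its log2 fold change was 5.55 (SE 1.72, adjusted p = 0.0498), just inside the threshold. Wap had 6 counts in LP replicate 3 (0.4 to 2.37 CPM) and none in the other 7 libraries. Glycam1, which encodes a mucin-like protein of milk and of lymph node vessels, had 0 counts in all 8 libraries. Taken as 3 counts, this allowed a level of up to 0.385 to 0.68 CPM depending on the library. The exact 95% interval, which is wider, reached 0.473 to 0.836 CPM. In the fit without a filter, Csn1s1, Csn1s2a, Csn2 and Wap had adjusted p-values of 0.722, 0.526, 0.676 and 0.248.

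Other genes shared the distribution of Lalba among LP libraries, and were picked out after their values had been seen. Spp1, which encodes osteopontin, a phosphoprotein also secreted in milk, lay at 69.3, 71.9, 2.49 and 1.39 CPM in LP replicates 1 to 4 and at 0 to 1.15 CPM in mature libraries. Chrdl2, a chordin-like gene, lay at 18.7, 26.7, 4.15 and 4.16 CPM in the same LP libraries and at 0 to 2.45 CPM in mature libraries. Csn1s2a, with 1.6, 2.16, 0.664 and 0.277 CPM, had the same 2 libraries on top, although its intervals overlapped between LP replicates 2 and 3.

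Of the fat secretion genes, Xdh showed the widest separation of the fractions. Xdh was at 474, 404, 466 and 646 CPM in LP replicates 1 to 4, and at 11.5, 12.3, 39.3 and 20.8 CPM in mature replicates 1 to 4. No library of either fraction fell between 39.3 and 404 CPM. The fold change was 23.5 (log2 fold change 4.56, SE 0.399, adjusted p = 0.000143). Its mean in LP was 498 ± 104 CPM (SD, n = 4), and in mature cells 21 ± 12.9 CPM (SD, n = 4).

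Plin2 was almost constant within LP. It lay at 714, 655, 682 and 660 CPM in LP replicates 1 to 4, and at 158, 250, 284 and 122 CPM in mature replicates 1 to 4. The coefficient of variation was 3.95% among LP libraries and 37.5% among mature ones. The fold change was 3.33 (log2 fold change 1.74, SE 0.256, adjusted p = 0.00116). In mature cells its mean per kilobase of spliced transcript was 108 CPM, against 4.56 for Xdh and 9.45 for Btn1a1. In LP the per kilobase means were 359 CPM for Plin2, 108 CPM for Xdh and 21.9 CPM for Btn1a1. Reads in introns are not allowed for in these means either. An unsplit read can fall wholly inside an exon for 61.5% of the positions on Xdh, 81.0% on Plin2 and 91.2% on Btn1a1. The effect of this on the means was not tested. Plin2 also coats lipid droplets in adipocytes. The 8 adipocyte markers (Adipoq, Fabp4, Plin1, Cidec, Cfd, Lep, Lpl and Pparg) summed to 4.03 to 7.64 CPM in LP and 3.62 to 22.6 CPM in mature libraries, Cidec and Lep were at 0 in every library, and Adipoq and Plin1 did not exceed 0.433 CPM.

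Btn1a1 overlapped between the fractions. Its level was 73.5, 101, 39.2 and 86.4 CPM in LP replicates 1 to 4 and 11.2, 7.35, 58.9 and 51.8 CPM in mature replicates 1 to 4. Mature replicates 3 and 4 lay above LP replicate 3 and below the other LP libraries, whereas mature replicates 1 and 2 lay below all LP libraries. The log2 fold change was 1.2 (SE 0.581, adjusted p = 0.158), and over 17 alternative settings the adjusted p ranged from 0.0695 to 0.304.

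The 4 tested genes differed in their spread within a fraction. On the log2 scale the SD among LP libraries was 0.88 for Csn3, 0.60 for Btn1a1, 0.29 for Xdh and 0.06 for Plin2, against a median of 0.21 over 3996 tested genes with a mean of at least 50 CPM. Of these genes, 98.7% had a smaller SD among LP libraries than Csn3, and 1.93% had a smaller SD than Plin2. Among mature libraries the SD was 1.16 for Csn3, 1.5 for Btn1a1, 0.81 for Xdh and 0.57 for Plin2, with a median of 0.30. The order among LP libraries was not shared, since LP replicate 3 was lowest for Csn3 and Btn1a1, LP replicate 2 was lowest for Xdh and Plin2, and LP replicate 2 was highest for Csn3 and Btn1a1.

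**Figure D3:**
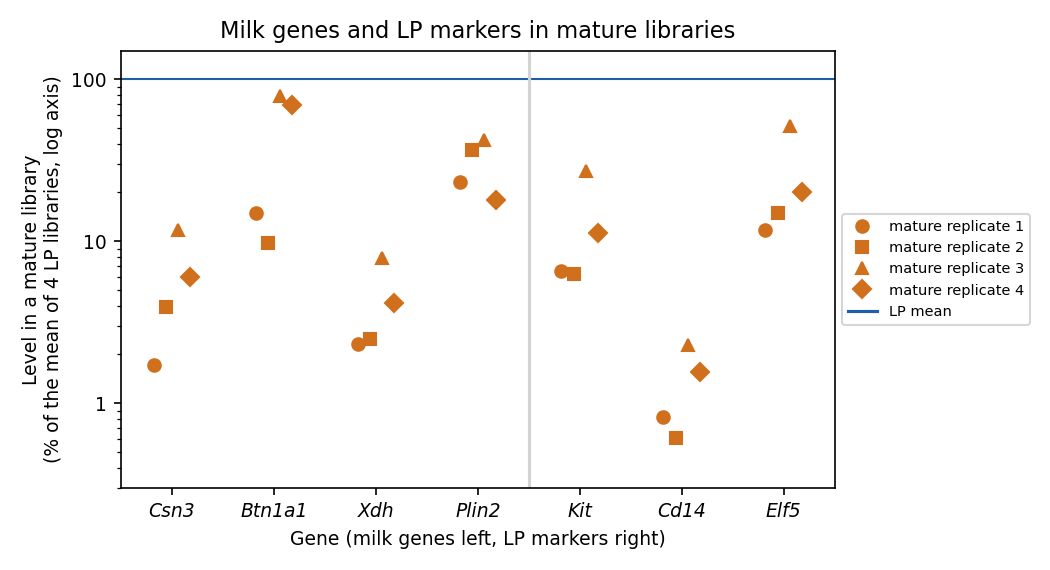
Level of 4 milk genes and 3 LP markers in each mature library as a percent of the mean of the 4 LP libraries (log axis), with a symbol for each replicate number and the LP mean as a blue line at 100%. Mature replicate 3 is the highest mature library for all 7 genes, but the percentages range from 2.28% for Cd14 to 78.5% for Btn1a1. The LP marker Aldh1a3, not drawn, is highest in mature replicate 4.

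Mature replicate 3 had the highest level among mature libraries for Csn3, Xdh, Plin2 and Btn1a1, and also for the LP markers Kit, Cd14 and Elf5. As a percent of the LP mean, it held 11.7% for Csn3, 7.89% for Xdh, 41.9% for Plin2 and 78.5% for Btn1a1, beside 27.2% for Kit, 51.6% for Elf5 and 2.28% for Cd14. In mature replicate 1 the corresponding values were 1.71% for Csn3, 2.32% for Xdh, 23.3% for Plin2, 15% for Btn1a1, 6.51% for Kit, 11.8% for Elf5 and 0.818% for Cd14. Mature replicate 3 therefore stood highest for every one of these genes, at percentages that differed widely between them. The LP marker Aldh1a3 went another way, at 60.0, 195, 354 and 378 CPM in mature replicates 1 to 4, highest in replicate 4. Itgb3, the remaining LP marker, reached 0.577 CPM in mature replicate 3 and was at 0 in the other mature libraries. The part of LP cells left in the mature gate in these differences was not tested. Without mature replicate 3 the log2 fold changes were 5.08 for Xdh, 1.98 for Plin2 and 1.67 for Btn1a1, and Btn1a1 was still not called (adjusted p = 0.0695). With mature replicate 1 left out instead, they were 4.36, 1.65 and 0.92.

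Other genes of milk protein and fat globules were examined as a list of 24, of which 16 could be tested. Of these, 9 were higher in LP, 1 was higher in mature cells and 6 were not called, where 10.9% and 13.8% of all tested genes were called in those directions. The median log2 fold change was 1.98, against 0.00 over all tested genes. This list and those of the following paragraphs were chosen with earlier results of these data known, so their counts are a description only. Ltf, which encodes the iron-binding milk protein lactoferrin, was at 14398, 12304, 9445 and 13990 CPM in LP replicates 1 to 4 and at 164, 373, 1018 and 927 CPM in mature replicates 1 to 4 (log2 fold change 4.34, SE 0.542, adjusted p = 0.000587). Lipa, a lysosomal lipase gene, had a log2 fold change of 3.83 (SE 0.369, adjusted p = 0.000224). The fat globule mucins Muc1 and Muc15 had log2 fold changes of 3.41 (SE 0.681, adjusted p = 0.00522) and 3.27 (SE 0.781, adjusted p = 0.0121). Their values were 4.4 and 4.26 without mature replicate 3, and 3.05 and 2.90 without mature replicate 1. Chrdl2 was called at 4.04 (SE 1.09, adjusted p = 0.0213), but the call was lost without LP replicate 1, LP replicate 2 or mature replicate 1. Its value was 3.48 without LP replicate 2 and 5.86 without mature replicate 3. Only 4, 0, 17 and 0 counts fell on Chrdl2 in mature replicates 1 to 4, so the size of its change rests on few counts. The remaining genes called as higher in LP were Pigr, the receptor that carries IgA into milk, Folr1, Mfge8 and Plin3. The gene higher in mature cells was Cd24a, which encodes a surface protein found on the fat globule (log2 fold change -1.89, SE 0.192, adjusted p = 0.000269). Mfge8, Muc1 and Muc15 are in the LP list that the study drew from these samples. Among the other perilipin genes, Plin1 and Plin4 were at 0 to 1.87 CPM, Plin5 at 8.13 to 15.8 CPM in LP and 0 to 3.66 CPM in mature libraries (adjusted p = 0.0604), and Plin3 at 156 to 193 CPM in LP and 78.2 to 102 CPM in mature libraries.

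Enzymes and transporters of milk fat and lactose synthesis were called in both directions. Of 30 genes, 27 were tested, 7 were higher in LP, 5 were higher in mature cells and 15 were not called, beside 10.9% and 13.8% of all tested genes in the respective directions. The median log2 fold change was 0.52. Scd1, which encodes a fatty acid desaturase, was at 1254, 1769, 1266 and 1188 CPM in LP replicates 1 to 4 and at 84.7, 88.3, 247 and 233 CPM in mature replicates 1 to 4 (log2 fold change 3.07, SE 0.384, adjusted p = 0.000587). Vldlr (2.60, SE 0.55, adjusted p = 0.0069), a lipoprotein receptor gene, and Acsl1 (2.25, SE 0.358, adjusted p = 0.00172), which activates fatty acids, followed. Acaca, which encodes the acetyl-CoA carboxylase of fatty acid synthesis, had a log2 fold change of 1.48 (SE 0.363, adjusted p = 0.0137), at the threshold (adjusted p = 0.05) without LP replicate 2. Dgat1 and Gpat4, enzymes of triglyceride synthesis, were also called as higher in LP. The fatty acid synthase gene Fasn was at 7.33 to 13.3 CPM in LP and 1.96 to 9.38 CPM in mature libraries and was not called (adjusted p = 0.325).

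Higher in mature cells were Dgat2, the other diacylglycerol acyltransferase gene (log2 fold change -3.06, SE 0.512, adjusted p = 0.00226), and 3 genes of glucose use, Hk2 (-2.79, SE 0.285, adjusted p = 0.000269), Slc2a1 (-2.64, SE 0.496, adjusted p = 0.00375) and Pgm1 (-1.29, SE 0.254, adjusted p = 0.00487). Slc2a1, the gene of the glucose transporter GLUT1, was at 203, 145, 248 and 224 CPM in LP replicates 1 to 4 and at 1901, 2223, 536 and 466 CPM in mature replicates 1 to 4, so the mature libraries formed a higher and a lower pair, both above LP. Gpam, the gene of a mitochondrial glycerol-phosphate acyltransferase, was called at -1.65 (SE 0.489, adjusted p = 0.0311), but its call was lost when any of 5 single libraries was left out. B4galt1, which encodes the catalytic partner of alpha-lactalbumin in lactose synthase, was expressed in every library, at 169 to 278 CPM in LP and 94.8 to 178 CPM in mature libraries, and was not called (adjusted p = 0.116).

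Genes of the hormone response that induces milk genes were called in both directions. Of 26 genes, 25 were tested, 8 were higher in LP, 5 were higher in mature cells and 12 were not called, where 10.9% of all tested genes were higher in LP and 13.8% in mature cells. The median log2 fold change was 0.12. Prlr, the prolactin receptor gene, was at 822, 408, 327 and 223 CPM in LP replicates 1 to 4 and at 4561, 4305, 3875 and 5442 CPM in mature replicates 1 to 4 (log2 fold change -3.35, SE 0.383, adjusted p = 0.000432). Its direction was thus opposite to that of Csn3. Stat5a was at 47.4 to 60.4 CPM in LP and 62.3 to 109 CPM in mature libraries (adjusted p = 0.0535), Stat5b gave an adjusted p of 0.823 and Jak2 one of 0.113. Cish, a feedback inhibitor gene that STAT5 induces, was at 22.5, 27.0, 28.7 and 38.3 CPM in LP replicates 1 to 4 and at 3.66, 1.05, 5.92 and 12.1 CPM in mature replicates 1 to 4 (log2 fold change 2.33, SE 0.543, adjusted p = 0.0107). The value for Cish was 3.0 without mature replicate 4 and 2.03 without mature replicate 2.

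Elf5, the transcription factor gene of alveolar differentiation, was at 191, 213, 249 and 217 CPM in LP replicates 1 to 4 and at 25.7, 32.3, 112 and 44.0 CPM in mature replicates 1 to 4 (log2 fold change 2.02, SE 0.403, adjusted p = 0.00524). The call of Elf5 held without mature replicate 3, where the value was 2.70, and without mature replicate 1, where it was 1.79. Irs1, an adaptor gene of the insulin receptor (2.23, SE 0.227, adjusted p = 0.000269), Tfap2c (2.19, SE 0.5, adjusted p = 0.00971), a transcription factor gene, and Erbb4 (2.27, SE 0.624, adjusted p = 0.0228), a receptor gene of the epidermal growth factor receptor family, were also higher in LP. Without mature replicate 3 the value of Tfap2c was 3.15 and that of Erbb4 was 3.06. Without mature replicate 1 they were 1.96 and 1.94. The call of Erbb4 was lost without LP replicate 3, mature replicate 2 or mature replicate 4. Nfib, Id2 and Cebpb made up the rest of the 8. On the mature side were Gata3, a luminal transcription factor gene (-0.80, SE 0.183, adjusted p = 0.01), and, with calls lost under several settings, Socs3 (-1.12, SE 0.358, adjusted p = 0.0426), Ncoa1 (-0.52, SE 0.151, adjusted p = 0.0272) and Yy1 (-0.51, SE 0.169, adjusted p = 0.0495). Elf5 is in the LP list and Prlr in the mature list that the study drew from these samples.

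**Figure D4:**
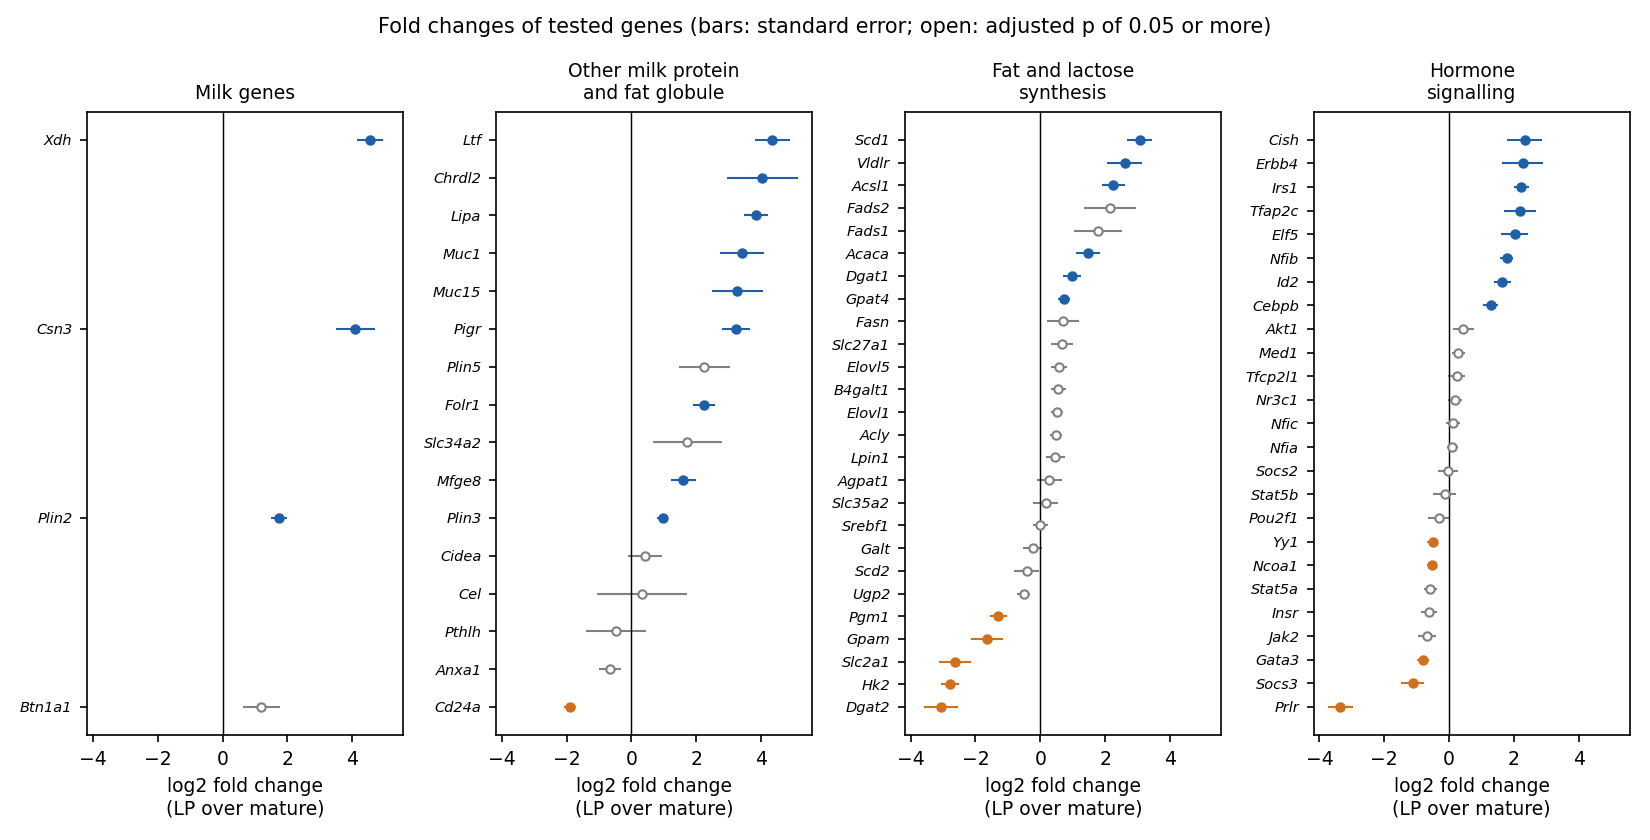
Log2 fold changes (LP over mature, x axis) of the tested milk genes and of the tested genes in the 3 lists (1 gene is not shown), with standard errors as bars, blue for genes called as higher in LP, orange for genes called as higher in mature cells and open grey symbols for genes not called. Xdh (4.56) and Csn3 (4.10) lie in the range of Ltf (4.34), and Prlr (-3.35) and Dgat2 (-3.06) lie at the other end.

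The genes whose pattern over the 8 libraries was most like that of the 4 caseins together were found by Pearson correlation of log2 CPM among 9564 genes. Since Csn3 makes up nearly all of the casein sum, this is the pattern of Csn3. After 1700066N21Rik, which shares its counts, came Glt8d1 and Arhgef6 (both r = 0.991), Hey1 (r = 0.990) and Nqo1 (r = 0.989). The 8 libraries form 2 fractions, so a gene that differs between them in the same direction scores high, and the values are a description. Hey1 lay at 343, 424, 111 and 247 CPM in LP replicates 1 to 4 and at 14.3, 24.2, 78.5 and 29.5 CPM in mature replicates 1 to 4, so that it also had its lowest LP value in replicate 3 and its highest mature value in replicate 3. After the mean of each fraction had been subtracted, the nearest genes were Idh3g (r = 0.982), 4933408J17Rik (r = 0.971), Lrp4 (r = 0.970) and Elmod2 (r = 0.966), again after 1700066N21Rik.

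For the sum of Wap, Lalba and Glycam1, which is almost wholly Lalba, the nearest genes were Cdc123 (r = 0.970), Bbof1 (r = 0.964), Polr2j (r = 0.951), Zfp608 (r = 0.949) and Atad1 (r = 0.938). These genes moved over a narrow range, Cdc123 for instance between 82.9 and 123 CPM, so that a high correlation over 8 libraries did not go with a change of like size. After subtraction of the fraction means, Zfp608 (r = 0.951), Bbof1 (r = 0.949), Cdc123 (r = 0.948) and 2700097O09Rik (r = 0.939) were among the nearest 5.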

How the data were processed

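RNA from 4 LP and 4 mature luminal libraries was sequenced by the authors as single 51 bp reads after amplification of 500 pg of RNA and 8 cycles of library PCR. Per the labels, reads were processed with cutadapt 4.2 and Bowtie2 2.3.5.1, and mm10 is named as a build beside hg19. The authors deposited raw counts per gene, as whole numbers without normalization, for 24594 Entrez Gene IDs, of which 24570 matched RefSeq. The counting program, its annotation, its use of strand and its treatment of multiply aligned reads are not given in the sources used here. The study states 3 biological replicates for its RNA sequencing, and all 4 libraries of each fraction in the table were used.

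Counts were scaled with TMM, filtered by fraction with filterByExpr (12816 genes left) and compared, LP against mature, by the two-sided quasi-likelihood test of edgeR 4.0.16 in R 4.3.3. The p-values of all tested genes were adjusted by the Benjamini-Hochberg method, with a threshold of 0.05. The SE was obtained by dividing the size of the log2 fold change by the root of the F statistic. CPM used TMM-scaled library sizes with no added count, and log2 CPM a prior count of 2. The common biological coefficient of variation was 0.393. Exact and Wilson intervals came from scipy 1.17.1.

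Named genes were the 10 milk genes, up to 5 called genes per direction with the largest change from each of 3 lists, genes starting within 300000 bases of a casein gene, the 5 nearest patterns among genes whose log2 CPM averaged 3 or more, and Kit, Cd14, Epcam and Itga6. Other genes are named where a count is resolved into its members or a list gene has a well known role. A few genes that these rules name are counted in the totals but not reported here. The members, lists and rules were chosen with earlier results of these data known. Alternatives were RLE and upper-quartile factors, DESeq2 1.42.0, the likelihood ratio test of edgeR, a fit without any filter, a minimum of 10 counts per library, the replicate number as a block, thinning to 4410049 counts, library sizes without the milk genes, and each library left out.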

Additional observations from a re-analysis of the deposited data

Results flagged for a closer look

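In each group of 4 libraries, the highest and lowest values were compared with the nearest other value, and a value was singled out where this gap, as a part of the whole range, exceeded the 95% critical value of Dixon's test. For continuous values chance singles out about 1 group in 20, or 3.85 of the 77 groups examined, and 10 values were found. A group with counts in only 1 library is always singled out, so the 10 cannot be set against 3.85. That was so for Csn1s1, Csn2 and Lalba in mature libraries and for Wap in LP.

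Of these, 5 belonged to milk genes with few counts. Csn1s1 stood at 3.32 CPM in LP replicate 3, with 0 to 0.144 CPM in the other LP libraries, and at 1.59 CPM in mature replicate 3, with 0 CPM in the other mature libraries. Csn2 stood at 2.31 CPM in mature replicate 3 and at 0 CPM in the other mature libraries. Wap stood at 0.996 CPM in LP replicate 3 and at 0 CPM in the other LP libraries. Lalba stood at 1.58 CPM in mature replicate 2 and at 0 CPM in the other mature libraries.

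The other 5 belonged to genes of the lists. Scd1 was 1769 CPM in LP replicate 2 and 1188 to 1266 CPM in the other LP libraries. Irs1 was 211 CPM in LP replicate 2 and 110 to 118 CPM in the others. Erbb4 was 85.7 CPM in LP replicate 3 and 27.2 to 35.4 CPM in the others. Tfap2c was 67.7 CPM in mature replicate 3 and 11.8 to 19.1 CPM in the others. Yy1 was 47.5 CPM in mature replicate 1 and 57.0 to 58.9 CPM in the others. The causes were not tested.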

How the results depend on the processing

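The calls of Csn3, Xdh and Plin2 held under all 17 alternatives, with log2 fold changes of 3.8 to 4.71, 4.36 to 5.08 and 1.58 to 1.98, and Btn1a1 was called under none (0.89 to 1.67). The count of called milk genes among those tested and the counts of the 3 lists stayed within 1.5 times their main values, while Lalba was called only with no filter. Over all genes 2338 to 3414 were called with a library left out and 2917 to 3791 otherwise, against 3161. The replicate number joins each LP to a mature library in the labels, as does the number that opens each column name. What these numbers stand for is not stated, and the main test did not use the pairing. The deviations of same-numbered libraries correlated at 0.062 to 0.148, above 0.1 in 2 of 4 pairs, although each of the 4 LP libraries correlated best with its own number. With the replicate number as a block 3027 genes and the same number of milk genes, 3, were called, the lists gave 10, 14 and 12 calls in place of 10, 12 and 13, Muc15 moved to 4.08 and Yy1 was not called (adjusted p = 0.0812). Of 31 named called genes, 7 lost the call somewhere (Chrdl2, Acaca, Gpam, Erbb4, Socs3, Ncoa1 and Yy1), with Yy1 losing it in 14 settings, and none reversed. Itga6, which was not called, ran from -0.27 to 0.02 with a library left out and turned positive, at 0.018, without mature replicate 2. Chrdl2 moved to 4.71 with counts thinned to the smallest library. Another scaling moved the median of all genes by at most 0.033 on the log2 scale. The causes of these moves were not tested. A count of 0 allowed a level of up to 0.385 to 0.68 CPM, taken as 3 counts of the library.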

Other observations

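Nearly equal counts were not limited to Csn3 and 1700066N21Rik. B2m lies in an intron of Patl2, and these genes had 90220 and 90361 counts over all 8 libraries. Among genes lying wholly within an intron of another gene, with no exon of the outer gene overlapping them and at least 10 counts in every library, 97 pairs were found. In 74 of the 97 the outer gene had at least as many counts as the inner gene in all 8 libraries, and in 42 of the 61 pairs on opposite strands the same held. This is a weaker condition than a match, since an outer gene with reads of its own also meets it. Gata3, for example, had 95647 counts against 297 for the gene in its intron. Other pairs failed it, such as Igfn1 with 0 counts against 6289 for Tmem9. How often the condition would be met if exons alone were counted was not tested. Among the milk genes, Plin2 also overlaps another gene in the table, the pseudogene Gm12551, which had 7 to 55 counts per library.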
